A study of Mus musculus with 8 samples.

Results

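The 29 genes described here encode receptors, enzymes, transporters and synaptic proteins of GABA signalling and markers of GABA interneurons. They were chosen by name from gene symbols, with no measured value in the rule, but with earlier results of these data known. All 29 were among the 17983 symbols of the count table and passed the filter on low counts that left 14895 genes for testing. The study sequenced brain mRNA in 8 libraries. Ketogenic food supplies most energy as fat and little as carbohydrate, and the mice of 4 libraries ate it. The mice of the other 4 libraries ate a normal diet and are the control group. All 8 libraries came from male db/db mice, which carry a leptin receptor mutation and become obese and diabetic, and no lean or wild-type group enters the comparison. Per the series description the diets ran from an age of 9 weeks, and brains were taken at 6 months. The labels do not say whether each library is a separate mouse, so p-values measure the spread between these libraries.

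GABA is the main inhibitory transmitter of the adult brain. It is made from glutamate by glutamate decarboxylase, loaded into vesicles by a dedicated transporter, and acts on GABA-A receptors, which are chloride channels of mixed subunits, and on GABA-B receptors, which couple to G proteins. The effect of an open GABA-A channel depends on the chloride gradient that cation-chloride cotransporters set. Cortical and hippocampal interneurons are commonly divided by the peptides and calcium-binding proteins they make.

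Total counts ran from 34450860 to 40233361 per library. The labelled tissue was checked against region markers. Gabra6, the GABA-A subunit of cerebellar granule cells, had 0 to 5 reads in each library, Pcp2, of Purkinje cells, 0 to 17, and Cbln3, also of granule cells, at most 1.44 CPM, counts scaled by the TMM-adjusted library total. Ppp1r17, of Purkinje cells, was also under 2 CPM in all 8 libraries. The other 6 of the 10 cerebellum markers were present, from Car8 at 5.6 to 9.11 CPM through Slc1a6 at 5.67 to 11.1, Cbln1 at 11.4 to 38.6, Zic2 at 13.8 to 26.9 and Zic1 at 23.5 to 72.6 to Calb1 at 139 to 158 CPM. The list summed to 261 to 298 CPM in control and 212 to 298 CPM in ketogenic libraries. Calb1, which is also on the dentate gyrus list, was the largest part of that sum. The series text describes whole brains. How much cerebellum entered the RNA was not tested. Several libraries stood apart in region markers. Ketogenic replicate 3 was the lowest of the 8 libraries for all 10 thalamus markers, with a summed level of 330 CPM against 528 to 614 in control libraries and up to 634 in the other ketogenic libraries. It was also lowest for 8 of 10 hypothalamus markers (38.1 CPM in sum, against 61.4 to 68 in control libraries). Hypothalamus markers summed to 148 CPM in ketogenic replicate 2 and 97.3 in ketogenic replicate 4. Excitatory forebrain markers were highest in ketogenic replicate 3, at 7609 CPM against 5764 to 6632 in control libraries. Ketogenic replicate 4 was the lowest library for 9 of 10 of them, at 5410 CPM in sum. Control replicate 2 was the lowest for 9 of 10 choroid plexus markers, at 617 CPM in sum against 1001 to 1417 in the other 7 libraries. General neuron markers summed to 10808 to 11889 CPM in control and 10222 to 11776 CPM in ketogenic libraries. In bulk RNA, fewer cells of a type and less RNA per cell cannot be told apart.

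Of the 29 genes 5 passed an adjusted p of 0.05 between diets in edgeR's quasi-likelihood test, with adjustment over all tested genes. The same rule called 6.52% of all tested genes. GABA-A subunit genes Gabra3, Gabrb1 and Gabrb2 fell in ketogenic libraries, by 0.19 to 0.21 on the log2 scale, and the subunit gene Gabrd and the vesicular transporter gene Slc32a1 rose, by 0.26 and 0.22. The background was 3.3% for higher genes and 3.22% for lower genes. None of the 8 interneuron markers, neither glutamate decarboxylase gene and neither GABA-B subunit gene passed. The median log2 change of the 29 was 0.008, beside -0.003 over all tested genes. The groups of 4 did not overlap for 7 members, 3 higher and 4 lower, where 13.7% of all tested genes did not overlap. All 5 calls had adjusted p between 0.0397 and 0.0468, close to the threshold.

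**Figure D1:**
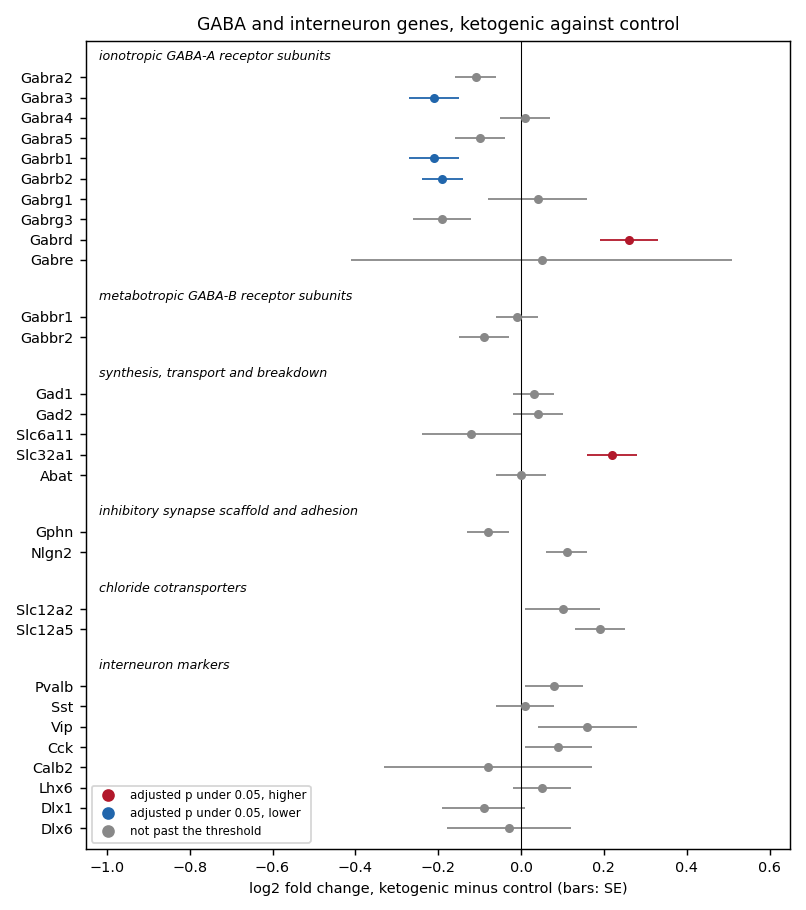
Log2 fold change of each of the 29 genes, ketogenic minus control, on the horizontal axis, grouped by role; points are edgeR estimates, bars are standard errors (SE), and colour gives the call at an adjusted p of 0.05. The 3 lower calls and 1 of the 2 higher calls are GABA-A subunit genes, and no interneuron marker is called.

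Promoter sequence was read for the members from RefSeq windows on GRCm38.p6, each from 250 bases before to 50 after an annotated start. Of the 29 symbols 24 matched, with 32 windows, and Slc12a2, Calb2, Gabrd, Dlx6 and Abat did not. Each window was searched on both strands for the cyclic AMP response element TGACGTCA, its shorter core TGACG, which the full element contains, and the TATA sequence TATAAA. TGACGTCA was in 1.79% of all 32851 windows and, among the members, only in that of Sst, at 48 bases before the start. The core TGACG was in 20.8% of all windows and in windows of 6 members, Sst, Cck, Vip, Gad2, Gabrb2 and Nlgn2. TATAAA was in 13.6% of all windows and in windows of 5 members, Gabra3, Gabrb2, Gad1, Lhx6 and Vip. The runs below show the 3 peptide genes with the core near the start and, for contrast, the 2 called subunit genes whose window held a searched motif. They are written 5′ to 3′ on the gene's strand with matches in capitals (a match on the other strand appears as its reverse complement). The 4 longer runs end at the base before the start, and the last C of Gabrb2 opens a core match that crosses it. A match is a description of letters and not of a bound site. The Sst run lies at chr16:23890874-23890903 (minus strand), Cck at chr9:121495695-121495844 (minus strand), Vip at chr10:5639068-5639217 (plus strand), Gabrb2 at chr11:42420290-42420439 (plus strand) and Gabra3 at chrX:72656920-72657069 (minus strand).
Sst: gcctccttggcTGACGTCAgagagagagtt
Cck: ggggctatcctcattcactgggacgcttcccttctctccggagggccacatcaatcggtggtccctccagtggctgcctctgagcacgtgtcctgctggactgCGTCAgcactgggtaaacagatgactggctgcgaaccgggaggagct
Vip: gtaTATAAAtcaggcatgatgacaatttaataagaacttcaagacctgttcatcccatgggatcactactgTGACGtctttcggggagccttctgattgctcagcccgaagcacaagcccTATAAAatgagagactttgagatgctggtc
Gabrb2: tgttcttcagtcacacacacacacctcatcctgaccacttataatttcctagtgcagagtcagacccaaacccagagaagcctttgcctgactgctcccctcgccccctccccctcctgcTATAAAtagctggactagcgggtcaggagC
Gabra3: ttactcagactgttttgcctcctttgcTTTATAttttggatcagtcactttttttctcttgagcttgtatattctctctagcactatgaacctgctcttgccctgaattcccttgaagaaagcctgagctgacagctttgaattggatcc

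Ionotropic receptor subunits held 4 of the 5 calls. Of 10 GABA-A subunit genes 3 fell, 1 rose and 6 did not pass, with a median log2 change of -0.102. Gabra3 encodes an alpha subunit. It was at 246, 232, 246 and 217 CPM in control replicates 1 to 4, and at 214, 203, 209 and 187 CPM in ketogenic replicates 1 to 4. Every ketogenic library lay below every control library, though ketogenic replicate 1 and control replicate 4 were close. The log2 change was -0.21 ± 0.06 (SE, edgeR adjusted p = 0.0445), a 1.16-fold difference between means of 235 ± 13.8 and 203 ± 12.1 CPM (SD, n = 4 each).

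Gabrb1 encodes a beta subunit, part of the GABA binding pocket. Its level was 284, 261, 246 and 249 CPM in control and 238, 225, 216 and 222 CPM in ketogenic replicates 1 to 4. The groups did not overlap, and control replicate 1 was the highest. Its log2 change was -0.21 ± 0.06 (SE, edgeR adjusted p = 0.0419). An antisense gene overlaps Gabrb1, as does Gabra4, and their reads cannot be told apart from its own without strand. Gabrb2, another beta subunit gene, stood at 372, 377, 350 and 342 CPM in control libraries and 325, 299, 333 and 306 CPM in ketogenic libraries. All 4 ketogenic values were below all 4 control values, and the log2 change was -0.19 ± 0.05 (SE, edgeR adjusted p = 0.0459).

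Gabrd moved the other way. It encodes the delta subunit, found in extrasynaptic receptors that carry tonic inhibition, mainly in dentate granule cells, thalamus and cerebellum. Control libraries had 49.5, 49.6, 52.2 and 45.3 CPM, and ketogenic libraries 56, 54.7, 68 and 57 CPM. The groups did not overlap, and ketogenic replicate 3 was the highest. The log2 change was 0.26 ± 0.07 (SE, edgeR adjusted p = 0.0468). Without ketogenic replicate 3 it was 0.19 and did not pass (adjusted p = 0.105). Dentate gyrus markers summed to 282 to 320 CPM in control and 287 to 311 CPM in ketogenic libraries. Calb1, also on the cerebellum list, was the largest part of that sum, at 139 to 158 CPM. Dsp alone did not overlap between diets, at 4.48 to 8.04 CPM in control and 8.31 to 11.5 CPM in ketogenic libraries. Every other marker of the list overlapped, and 0 of the 10 were called. Their part in the Gabrd values was not tested.

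The other subunits did not pass. Gabra2, an alpha subunit gene, was lower in all 4 ketogenic libraries, at 118 to 124 CPM against 125 to 135, with a log2 change of -0.11 ± 0.05 (edgeR adjusted p = 0.203). Gabrg3, a gamma subunit gene, had a log2 change of -0.19 ± 0.07 (adjusted p = 0.0949), as large as that of Gabrb2. Control replicate 2 of Gabrg3, at 43.9 CPM, overlapped the ketogenic range of 39.4 to 45 CPM. Gabra5, an alpha subunit gene of mostly extrasynaptic hippocampal receptors, had a log2 change of -0.10 ± 0.06, and Gabra4, an alpha subunit gene that pairs with delta in the forebrain, of 0.01 ± 0.06. Gabrg1, a gamma subunit gene, ran from 23 to 26.5 CPM in control and from 18.6 to 29.7 CPM in ketogenic libraries, with the lowest value in ketogenic replicate 3.

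Gabre, the epsilon subunit gene, had the lowest FPKM of the members (a level scaled by gene length and by library total). Its level was 2.91, 3.92, 2.3 and 3.66 CPM in control replicates 1 to 4, and 2.43, 5.53, 0.373 and 4.87 CPM in ketogenic replicates 1 to 4. Ketogenic libraries held both the lowest and the highest value of the 8. Its log2 change between diets was 0.05 ± 0.46. Gabrq, the theta subunit gene, which lies beyond Gabra3 in the same X cluster and is not a member, went the same way between these libraries, at 4.21 CPM in ketogenic replicate 3 and 20.2 CPM in ketogenic replicate 2, with 12 to 17 CPM in control libraries. Ketogenic replicates 3 and 2 were also the lowest and the highest for hypothalamus markers. The part of those markers in the Gabre and Gabrq values was not tested.

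**Figure D2:**
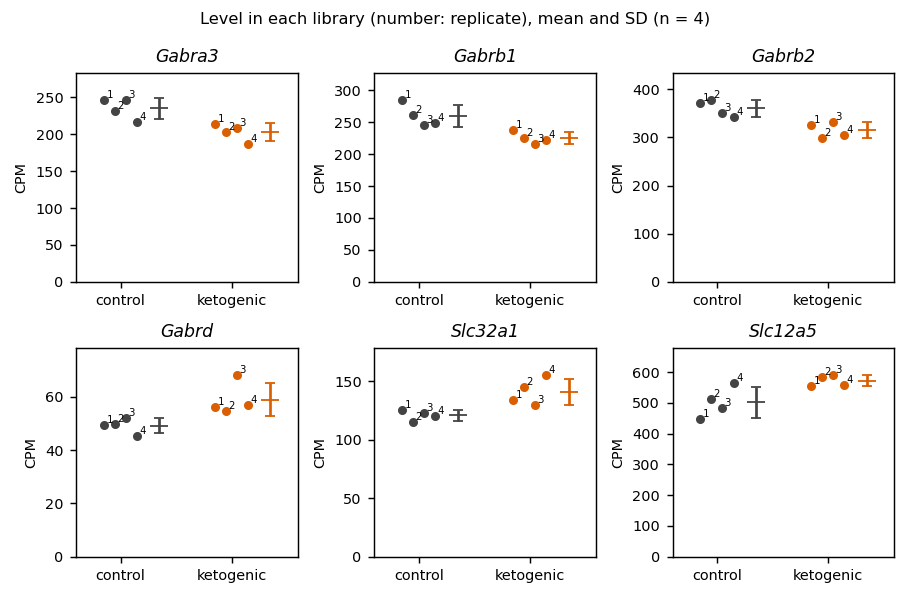
CPM of Gabra3, Gabrb1, Gabrb2, Gabrd, Slc32a1 and Slc12a5 in each library on a vertical axis that starts at 0; numbered points are replicates, and the bar beside each group is its mean with SD (n = 4). The groups are apart in the first 5 genes and overlap in Slc12a5, where control replicate 4 lies at 565 CPM.

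GABA-A subunit genes lie in clusters, which the choice of members did not use. Coordinates are RefSeq gene bounds on GRCm38.p6. The chromosome 5 cluster runs from Gabrg1 (chr5:70751047-70842617) through Gabra2 and Gabra4 to Gabrb1 (chr5:71657921-72149572). Within it the log2 changes were 0.04, -0.11, 0.01 and -0.21, and only Gabrb1 passed. Gabra4 and Gabrb1 start head to head and share 388 bases on opposite strands. Since the use of strand in counting is not given in the sources used here, reads from that stretch cannot be assigned. On chromosome 7, the neighbours Gabrg3 and Gabra5 had log2 changes of -0.19 and -0.10, and neither passed. Gabrb2 lies at chr11:42419515-42632591. Gabra3 (chrX:72432676-72656919) and Gabre share an X cluster, where Gabra3 passed and Gabre did not.

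GABA-B receptors work as a pair, in which the Gabbr1 protein binds GABA and the Gabbr2 protein couples to the G protein. Gabbr1 was at 857 to 921 CPM in control and 847 to 917 CPM in ketogenic libraries, with a log2 change of -0.01 ± 0.05 (edgeR adjusted p = 0.923). Gabbr2 was at 517 to 563 and 469 to 539 CPM, with a log2 change of -0.09 ± 0.06 (edgeR adjusted p = 0.33). Both ranges overlapped between diets.

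Among genes of synthesis, transport and breakdown 1 of 5 passed. Slc32a1 encodes the transporter that fills synaptic vesicles with GABA and glycine. It was at 125, 115, 123 and 120 CPM in control replicates 1 to 4, and at 134, 145, 130 and 155 CPM in ketogenic replicates 1 to 4. All ketogenic values were above all control values. An antisense gene overlaps Slc32a1, and its reads cannot be told apart without strand. The log2 change was 0.22 ± 0.06 (SE, edgeR adjusted p = 0.0397), from 121 ± 4.38 to 141 ± 11.4 CPM (SD, n = 4 each). Gad1, which encodes the glutamate decarboxylase that makes most of the resting GABA pool, was at 467, 464, 462 and 467 CPM in control libraries and 442, 475, 481 and 500 CPM in ketogenic libraries. Control values lay within a few CPM of each other and ketogenic values on both sides of them. The log2 change of Gad1 was 0.03 ± 0.05 (edgeR adjusted p = 0.761). Gad2, the other decarboxylase gene, had 345 to 359 CPM in control and 313 to 401 CPM in ketogenic libraries, with a log2 change of 0.04 ± 0.06. The Gad1 to Gad2 ratio of length-scaled levels (in FPKM) was 2.31 ± 0.0334 in control and 2.31 ± 0.254 in ketogenic libraries (SD, n = 4 each), with the highest ratio, 2.69, in ketogenic replicate 3. Whether the change of Slc32a1 differs from those of Gad1 and Gad2 was not tested.

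Slc6a11 encodes a plasma membrane GABA transporter of astrocytes. Its level was 302, 297, 273 and 316 CPM in control and 263, 296, 191 and 346 CPM in ketogenic replicates 1 to 4. Ketogenic replicate 3 was far below every other library and ketogenic replicate 4 above every other. Its log2 change was -0.12 ± 0.12, and 0.03 without ketogenic replicate 3. Astrocyte markers summed to 5368 CPM in ketogenic replicate 3, inside the control range of 4855 to 5683 CPM. Slc1a2, at 2860 CPM, was the largest part of that sum. Single markers differed in that library. Gfap, Gja1, Aldh1l1 and Aqp4 lay below every control library, and Fgfr3 and Gjb6 above every one. Slc1a2, Slc1a3, Aldoc and Sox9 lay inside the control range. Of the 10 markers 1 rose and 4 fell between diets. The part of these markers in the Slc6a11 values was not tested. Abat, the transaminase that breaks GABA down in mitochondria, had 490 to 520 CPM in control and 459 to 554 CPM in ketogenic libraries.

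The scaffold protein gephyrin anchors GABA-A and glycine receptors at the synapse. Its gene, Gphn, ran from 86.2 to 90.4 CPM in control and from 80.9 to 86.5 CPM in ketogenic libraries (log2 change -0.08 ± 0.05, edgeR adjusted p = 0.365). Nlgn2 encodes the neuroligin of inhibitory synapses. All 4 of its ketogenic values, 294 to 319 CPM, lay above the control values of 273 to 289 CPM, but the log2 change of 0.11 ± 0.05 did not pass (edgeR adjusted p = 0.183).

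Chloride cotransporter genes did not pass. Slc12a5 encodes the neuronal exporter of chloride, which makes GABA hyperpolarizing. Control libraries had 446, 513, 483 and 565 CPM and ketogenic libraries 554, 584, 589 and 558 CPM. Control replicate 4 lay inside the ketogenic range and the other 3 control libraries below it. The log2 change was 0.19 ± 0.06 (SE, edgeR adjusted p = 0.0859), and 0.25 without control replicate 4 (adjusted p = 0.0122). That was the 1 of 8 fits leaving out 1 library in which Slc12a5 passed. Across the 8 the edgeR adjusted p reached 0.247. Without control replicate 4, calls over all tested genes also rose, from 491 higher and 480 lower to 938 and 962. Slc12a2, which brings chloride in and is found in glia, choroid plexus and immature neurons, was at 50.6 to 66.3 CPM in control and 53 to 73.5 CPM in ketogenic libraries (log2 change 0.10 ± 0.09). The Slc12a5 to Slc12a2 ratio of FPKM was 9.63, 10, 9.32 and 9.32 in control and 10.3, 10.6, 12.2 and 8.31 in ketogenic replicates 1 to 4. Ketogenic libraries spanned the control range on both sides.

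Interneuron markers did not pass, with 0 of 8 called, log2 changes from -0.09 to 0.16, and 0 of 8 at an unadjusted p under 0.05. Over all 14895 tested genes edgeR's test called 971, and 3659 had an unadjusted p under 0.05. The DESeq2 Wald test also called 0 of the 8 markers. Pvalb, the calcium-binding protein of fast-spiking interneurons, was at 63.9, 64, 64.4 and 62.6 CPM in control and 60.4, 63.7, 75.3 and 70.4 CPM in ketogenic libraries. The control values were nearly equal, and ketogenic replicate 3 was highest. Sst, which encodes somatostatin, was at 247, 244, 254 and 223 CPM in control and 224, 240, 282 and 228 CPM in ketogenic libraries. Again ketogenic replicate 3 was highest and the groups overlapped, with a log2 change of 0.01 ± 0.07. Vip, which encodes vasoactive intestinal peptide, had 26.4 to 34.4 CPM in control and 24.1 to 40.8 CPM in ketogenic libraries (log2 change 0.16 ± 0.12). Cck, a peptide gene that basket cells share with many excitatory neurons, had 174 to 211 and 174 to 237 CPM (log2 change 0.09 ± 0.08). Ketogenic replicate 3 was the highest of the 8 libraries for Vip and Cck too.

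Calb2, which encodes calretinin, departed from the other markers. It is made by interneurons and also by thalamic, hypothalamic and olfactory bulb neurons. Control libraries had 80.1, 84.2, 71.3 and 81.4 CPM and ketogenic libraries 66.1, 92.7, 28 and 113 CPM. Ketogenic replicate 3 was at 35.3% of the control mean, while ketogenic replicate 4 exceeded every control library. Calb2 had a log2 change of -0.08 ± 0.25, and 0.20 without ketogenic replicate 3. The other 9 thalamus markers summed to 302 CPM in ketogenic replicate 3, against 457 to 530 CPM in control and 440 to 521 CPM in the other ketogenic libraries. Without Calb2, olfactory bulb markers summed to 76.9 CPM in ketogenic replicate 3, which was the lowest library for 5 of those 9. They summed to 85.8 to 119 CPM in control and 81.8 to 97.6 CPM in the other ketogenic libraries. Hypothalamus markers summed to 38.1 CPM in ketogenic replicate 3 and 61.4 to 68 CPM in control libraries. The part of these region markers in the Calb2 values was not tested. Transcription factor genes of the interneuron lineage varied less than Calb2 among ketogenic libraries only. There the coefficient of variation was 5.8% for Lhx6, 11.6% for Dlx1 and 15.9% for Dlx6, against 48.9% for Calb2. Among control libraries it was 6.76%, 14% and 12.1%, against 7.01% for Calb2. Lhx6, of the lineage that gives parvalbumin and somatostatin cells, had 30.3 to 34.9 CPM in control and 31 to 35.5 CPM in ketogenic libraries. Dlx1 had 25 to 34.6 and 22.9 to 30.3 CPM, and Dlx6 had 5.56 to 7.48 and 5.36 to 7.83 CPM. Of the members, Slc32a1, Gabrb1, Gabra5, Gad1, Dlx1 and Dlx6 overlap antisense genes in GENCODE, so their reads could include those transcripts.

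**Figure D3:**
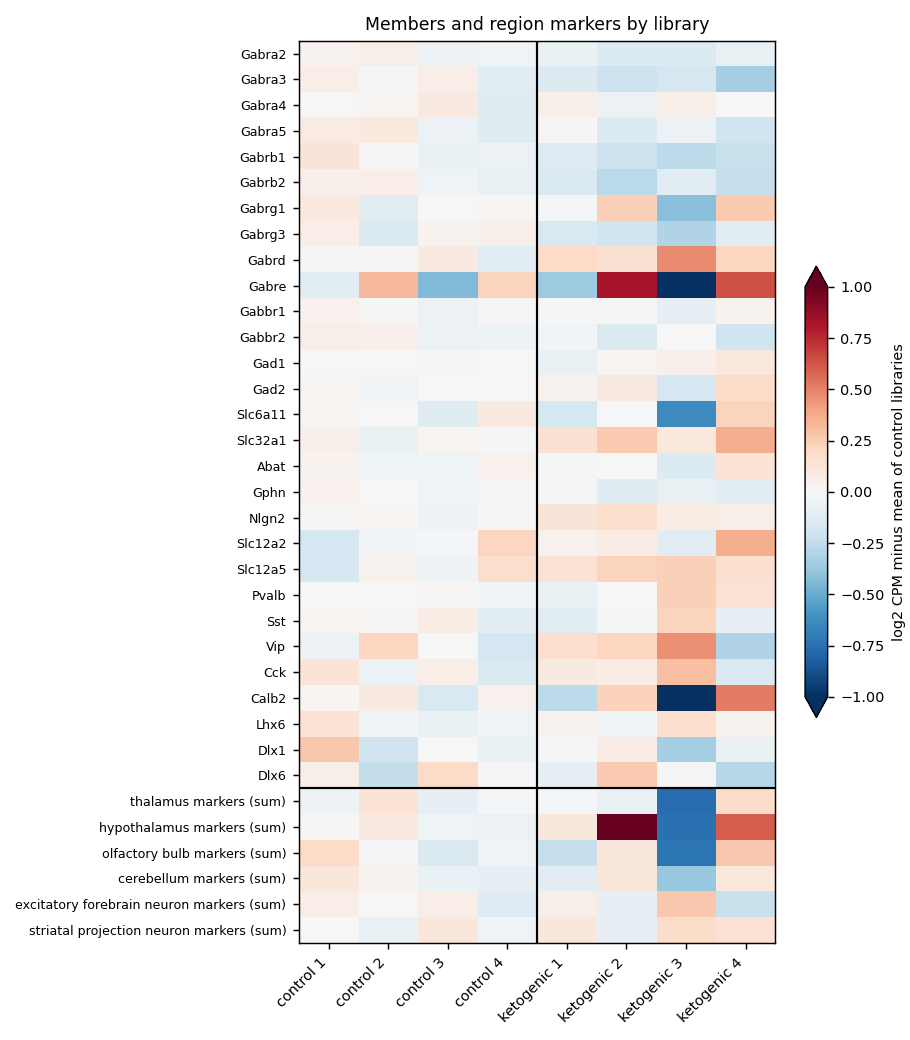
Log2 CPM of each member (above the line) and of summed region markers (below it) in each of the 8 libraries, minus the mean of the control libraries; colours saturate at 1 in either direction. Calb2, Gabre, Slc6a11 and Gabrg1 are low in ketogenic replicate 3 together with thalamus and hypothalamus markers, while Gabrd, Vip, Cck and Sst are high there.

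Ketogenic replicate 3 was the lowest of the 8 libraries for 11 of the 29 members, or 37.9%, and for 15.3% of all tested genes. It was the highest for 7 members, or 24.1%, and for 16.9% of all tested genes. Ketogenic replicate 4 was the highest for 8 members, or 27.6%, and for 13.1% of all tested genes, and control replicate 1 for 7 members and 17.8% of all tested genes. The members lowest in ketogenic replicate 3 were Gabra2, Gabrb1, Gabrg1, Gabrg3, Gabre, Gabbr1, Gad2, Slc6a11, Abat, Calb2 and Dlx1. The coefficient of variation was larger among ketogenic than among control libraries for 21 of 29 members, or 72.4%, and for 47.8% of all tested genes. It went from 7.01% to 48.9% for Calb2 and from 6.01% to 23.7% for Slc6a11. Without ketogenic replicate 3, Gabra3, Gabrb2 and Slc32a1 passed (edgeR adjusted p = 0.0495, 0.0369 and 0.0258), while Gabrb1 (adjusted p = 0.0798) and Gabrd did not.

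Levels between genes were compared by FPKM, which divides by gene length. Sst was highest, at 277 ± 13.3 FPKM in control libraries (SD, n = 4), followed by Cck at 160 ± 12.2 and Gabbr1 at 153 ± 4.8. Cck and Gabbr1 lay within 1 SD of each other. Among the member GABA-A subunit genes the order was Gabra3 (57.2 ± 2.86 FPKM), Gabrb2 (42.7 ± 1.86), Gabra4 (29.2 ± 1.55), Gabrd (25.1 ± 1.31), Gabra5 (24.6 ± 1.73), Gabra2 (23.1 ± 0.91), Gabrb1 (17.8 ± 1.08), Gabrg3 (4.85 ± 0.3), Gabrg1 (3.12 ± 0.162) and Gabre (0.913 ± 0.217). Gabrd and Gabra5 lay within 1 SD of each other in control libraries. In ketogenic libraries Gabrd, at 30.2 ± 2.55 FPKM, stood beside Gabra4, at 29.6 ± 0.765, and above Gabra5, at 23.1 ± 1.23.

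**Figure D4:**
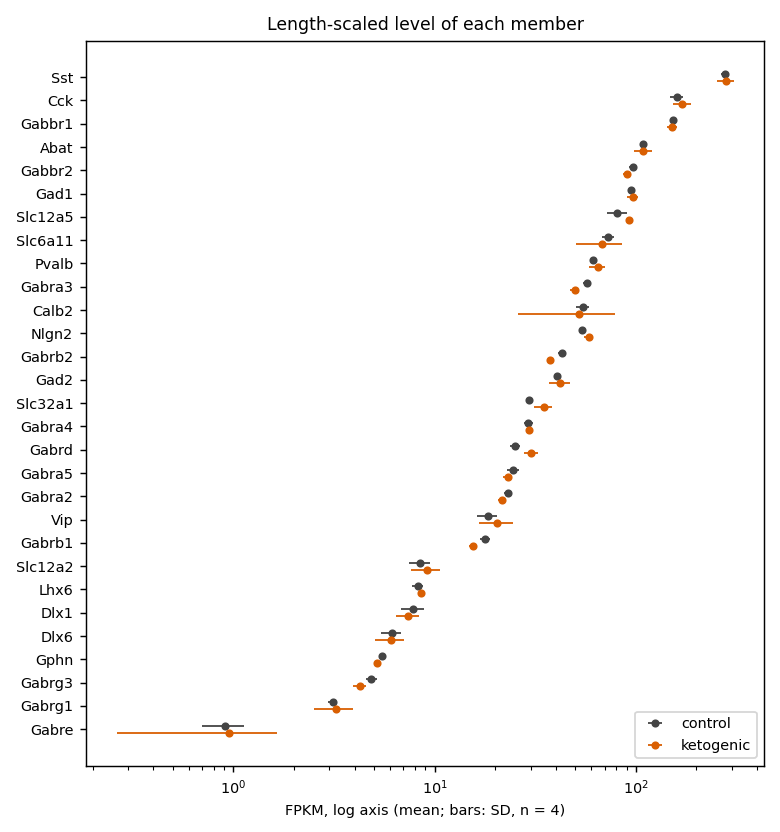
Mean FPKM of each member on a logarithmic axis with SD (n = 4), control and ketogenic libraries side by side, in the order of the control means. Levels run from 0.913 FPKM for Gabre to 277 FPKM for Sst.

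Further genes of the pathway were taken from a list chosen by function. Of 31 tested GABA pathway genes outside the members 3 fell, 1 rose and 27 did not pass, with a median log2 change of -0.016. Calls made up 12.9% of this list, beside 6.52% of all tested genes. Kctd16, an auxiliary subunit gene of GABA-B receptors, fell from 167 ± 3.95 to 143 ± 12.4 CPM (edgeR adjusted p = 0.0429; SD, n = 4 each). Lhfpl4, which links GABA-A receptors to neuroligin, rose, with a log2 change of 0.23 ± 0.06 (edgeR adjusted p = 0.0428). Of 40 other interneuron genes 0 passed in edgeR's or DESeq2's test, and 3 had an unadjusted p under 0.05 in each. Over all 14895 tested genes 3659 had an unadjusted p under 0.05 in edgeR's test.

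Transcript GC content moved with the calls. Across all tested genes with a known GC content the median log2 change went from -0.11 in the lowest of 10 equal bins, at a median of 39.7% GC, to 0.08 in the highest, at 59.9%. The lowest bin held 6 higher and 141 lower genes and the highest 99 higher and 19 lower. The 3 members that fell had low GC, with 43.1% in Gabra3, 40.9% in Gabrb1 and 44% in Gabrb2, and the 2 that rose had 54.7% in Gabrd and 61.9% in Slc32a1. The members closest to the threshold followed the same order, at 42.9% in Gabrg3 and 58.3% in Slc12a5. Not all members did. Among those that did not pass, Vip was at 38.7% GC with a log2 change of 0.16, and Slc6a11 at 53.9% with -0.12. Compared with the median of genes of like GC content, the differences were smaller but kept their sign, at -0.13 for Gabra3, -0.09 for Gabrb1, -0.15 for Gabrb2, 0.21 for Gabrd and 0.14 for Slc32a1. A smooth trend on GC content and gene length was also removed from each library, an alternative added after the data were seen. In edgeR's test 0 of the 29 members and 0 of the 31 other pathway genes passed, with 2 and 10 at an unadjusted p under 0.05. Over all tested genes 146 higher and 153 lower genes passed in that fit. Their number at an unadjusted p under 0.05 is not given here. The log2 changes were then -0.12 for Gabra3 (adjusted p = 0.317), -0.09 for Gabrb1 (0.384), -0.10 for Gabrb2 (0.344), 0.21 for Gabrd (0.158) and 0.15 for Slc32a1 (0.189). With the length trend alone removed Slc32a1 passed (adjusted p = 0.0376) and the other 4 did not.

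**Figure D5:**
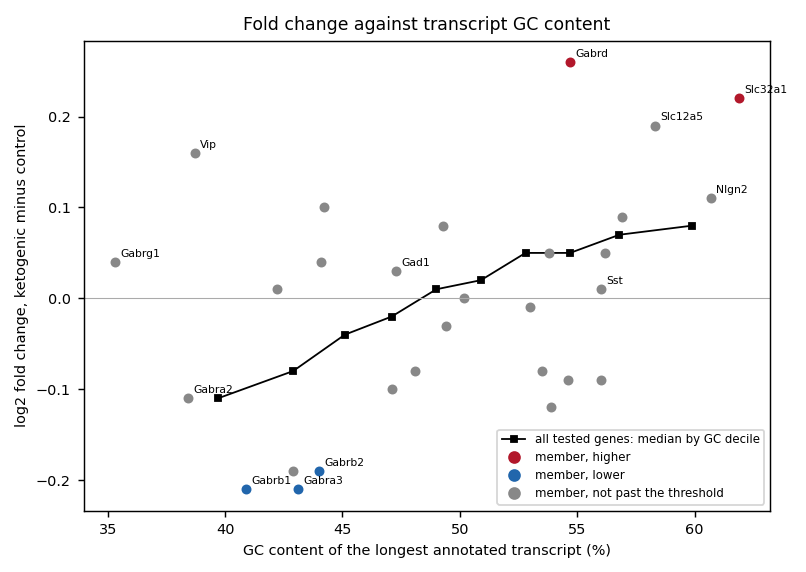
Log2 fold change of each member, ketogenic minus control, against the GC content of its longest annotated transcript; black squares join the median log2 fold change of all tested genes in each of 10 bins of GC content. The 3 members that fell lie between 40.9% and 44% GC, and Gabrd and Slc32a1 lie at 54.7% and 61.9%.

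Calls also changed when 1 library was left out, among the members and among all tested genes. Over all tested genes the 491 higher and 480 lower calls became 70 and 76 without control replicate 1. They became 938 and 962 without control replicate 4. Whether the members differ in this from other genes was not tested. Gabra3, Gabrb2 and Slc32a1 each passed in 2 of the 8 fits that left out 1 library, without control replicate 4 or without ketogenic replicate 3. Gabrb1 passed in 2, without control replicate 4 or ketogenic replicate 1, and Gabrd in 0. No member passed without control replicate 1, 2 or 3, or without ketogenic replicate 2 or 4. Signs did not change for any of the 5 in these fits: the log2 change ran from -0.24 to -0.17 for Gabra3, from -0.23 to -0.16 for Gabrb1, from -0.21 to -0.17 for Gabrb2, from 0.19 to 0.30 for Gabrd and from 0.17 to 0.27 for Slc32a1.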

How the data were processed

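The data were 8 brain libraries (4 control, 4 ketogenic), made from 1.3 ug of total RNA with a SMARTer mRNA kit, per the labels. The authors deposited raw counts per gene symbol and FPKM values. The deposited FPKM equalled the count over 1 length per gene and the column total (the implied lengths spread by at most 1.79e-07 of their mean, over genes with 10 or more counts everywhere). The submitters' processing notes name GRCm38 and mm10; which aligner, counter, strand setting and annotation were used is not given in the sources used here.

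Ketogenic was compared with control by edgeR 4.0.16 (R 4.3.3): filterByExpr, TMM factors, quasi-likelihood F test, intercept and diet, Benjamini-Hochberg adjustment over 14895 genes, threshold 0.05. The SE came from the F statistic (log2 change over its root), and CPM uses TMM library sizes. DESeq2 1.42.0 and limma 3.58.1 gave alternatives. GC content came from the longest GENCODE M21 transcript (98.1% of tested genes); trends were removed by loess (span 0.3). The edgeR step was tested on simulated counts. Members and lists were chosen with earlier results of these data known. All members are named, and of other listed genes those past the threshold (at most 8 per list), except that some are not reported here; the other pathway and marker genes named here illustrate a list or a neighbour and were picked afterwards. Replicate numbers are shared by the diets but mark no stated batch.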

Additional observations from a re-analysis of the deposited data

Results flagged for a closer look

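In 58 groups of 4 libraries (29 genes in 2 diets), 2 held a library whose distance to its nearest neighbour took up most of the group's range, past Dixon's 95% critical value; chance gives this in about 1 group in 20. Gabrg3 was at 43.9 CPM in control replicate 2, against 49.7 to 50.8 CPM in the other 3 control libraries, with a gap of 0.842 of the range. Lhx6 was at 34.9 CPM in control replicate 1, against 30.3 to 30.8 CPM in the other 3, with a gap of 0.888 of the range.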

How the results depend on the processing

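Counts of called genes moved with most choices. Over all tested genes the 491 higher and 480 lower calls became 866 and 853 with DESeq2's Wald test, 146 and 153 after removal of a GC and length trend (added after seeing the data), 39 and 51 without ketogenic replicates 3 and 4 together, 1011 and 998 at an adjusted p of 0.1, and 40 and 39 at 0.01. They were 286 higher and 203 lower with limma on log2(FPKM + 1), and 229 lower with a pseudocount of 0.1. Leaving out 1 library gave 70 to 938 higher and 76 to 962 lower.

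For the members the 2 higher and 3 lower calls became 0 and 0 with GC and length removed, without ketogenic replicates 3 and 4, at 0.01, and with limma on log2(FPKM + 1). They were 1 and 0 with the length trend alone removed and with limma on log2(FPKM + 0.1), and limma-voom gave 1 higher. Leaving out 1 library gave 0 to 2 higher and 0 to 3 lower. Among GABA-A subunit genes the 1 higher call was 0 in every leave-one-out fit, with GC and length or length alone removed, limma-voom, FPKM + 1, without ketogenic replicates 3 and 4, and at 0.01. Their 3 lower calls ranged from 0 to 3 over leave-one-out fits and were 0 in the settings that gave 0 lower members. Their median of -0.102 became -0.028 with GC and length removed and -0.149 with limma-voom, and ran from -0.144 to -0.076 without 1 library. The 1 higher call in synthesis, transport and breakdown ranged from 0 to 1 and was 0 with GC and length removed, both FPKM fits, without ketogenic replicates 3 and 4, and at 0.01. The scaffold median of 0.015 was 0.054 with length removed (0.001 to 0.028 without 1 library). Slc12a5 made 1 chloride call with DESeq2 and at 0.1 (0 to 1 without 1 library). Other pathway genes had 2 higher and 6 lower calls with DESeq2, 2 and 7 at 0.1, 0 and 0 with GC and length removed, without ketogenic replicates 3 and 4, and at 0.01, and 0 higher with both FPKM fits. Without 1 library they had 0 to 2 higher and 0 to 5 lower, with medians of -0.039 to 0.025, and without ketogenic replicates 3 and 4 a median of -0.061.

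Deviations of same-numbered libraries of the 2 diets had small positive correlations (0.0218, 0.0539, 0.0759 and 0.0439). Those of different-numbered libraries ran from -0.09 to 0.0851, most of them below 0. Deviations from a group mean cancel within the group. Positive values for the same numbers therefore leave the others negative on balance, and that contrast is no separate observation. The labels name no pairs, so the numbers were not taken as pairs in the main fit. Whether they mark a shared batch was not tested. With the replicate number as a block, 746 higher and 782 lower genes passed, more than the 491 and 480 of the main fit. The GABA-A median was then -0.149, chloride cotransporters had 1 higher call, other pathway genes had 2 higher and 6 lower, and Gabre was at -0.26.

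Of 759 values of named genes under the alternatives, 46 in 15 genes changed sign, none in a gene past the threshold. The 759 include the settings at an adjusted p of 0.1 and 0.01, which repeat the main log2 changes and cannot change sign. Without 1 library the log2 change ran from -0.0214 to 0.0446 for Gabra4, -0.0394 to 0.1686 for Gabrg1, -0.3189 to 0.4241 for Gabre, -0.0299 to 0.0157 for Gabbr1, -0.0125 to 0.1073 for Gad2, -0.2472 to 0.0269 for Slc6a11, -0.0483 to 0.0464 for Abat, -0.0001 to 0.177 for Slc12a2, -0.0664 to 0.0458 for Sst, -0.346 to 0.1959 for Calb2, -0.1491 to 0.0108 for Dlx1 and -0.1345 to 0.0518 for Dlx6. Without ketogenic replicates 3 and 4, Gabbr1 was at 0.003, Gad1 at -0.0166, Pvalb at -0.0357, Sst at -0.059, Calb2 at 0.0056, Dlx1 at 0.0269 and Dlx6 at 0.0929. With GC and length removed Gabra2 was at 0.0426 and Sst at -0.0877, and with length alone Gabbr1 was at 0.0191, Abat at 0.0137 and Sst at -0.0719. Gabre was at -0.31 with FPKM + 0.1, -0.0389 with FPKM + 1 and -0.45 with limma-voom. Abat, at about 0 throughout, was at 0.0008 with DESeq2, 0.0007 with its size factors, 0.0064 by library size, 0.001 by upper quartile, 0.0012 at a mean CPM of at least 1, and 0.0019 with no count filter and in both FPKM fits. The cause was not tested beyond the fewer libraries in the fits that leave some out.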
